A study of Mus musculus with 8 samples.

Results

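The cytokine and chemokine transcripts described here are those of 10 genes, Il12a, Spp1, Il18, Ccl3, Ccl4, Ccl5, Ccl9, Tnf, Cxcl16 and Tgfb1, among 36095 features on the array. They were measured in plasmacytoid dendritic cells (pDC), which sense nucleic acids in endosomes and secrete type I interferon. The cells were grown from bone marrow precursors of female BALB/c mice in culture with the growth factor mFlt3-L, isolated by magnetic and flow cytometric sorting, and separated by surface Sca-1, the product of Ly6a. There were 4 Sca-1+ and 4 Sca-1- samples, each on 1 single-colour Agilent array, and no stimulus is named in the labels, so the levels are taken as those of resting cells. All samples share the strain, the sex and the culture system, and the labels give no age. Whether replicates are separate cultures or mice is not stated, so a p-value measures the spread of these samples alone, and that spread may be technical.

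Members were found by their name among non-control probes, and each of the 10 genes had 1 probe, so the rule of taking the probe with the highest mean signal over all 8 arrays left nothing to choose. The genes themselves were selected on earlier results of these arrays, and their differences are given as a description of the members and not as independent evidence. All 10 passed the filter on dim probes, which kept 19818 genes whose probe stood well above background on 4 arrays or more. Of the 10, 8 were well above background on every array. Il12a reached that mark on 3 of 4 Sca-1+ and all 4 Sca-1- arrays. Spp1 passed only through its 4 Sca-1- arrays. A level below is the log2 processed signal minus the array's own 75th percentile, so a level of 0 is that percentile, and levels are compared between samples for 1 probe and never between probes.

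Cytokines and chemokines are secreted proteins that act through receptors on other cells or on the cell that made them. IL-12p35, encoded by Il12a, pairs with the p40 chain to form IL-12, which drives interferon gamma production, and IL-18, made as an inactive precursor that caspase-1 cleaves, works in the same direction. CCL3, CCL4, CCL5 and CCL9 are CC chemokines that attract monocytes, T cells or other leukocytes, CXCL16 is a membrane-bound chemokine that binds CXCR6, and TNF and TGF-beta 1 are inflammatory and regulatory cytokines. Osteopontin, the product of Spp1, is a secreted matrix protein that also works as a cytokine, and in mouse pDC an intracellular form has been tied to interferon alpha production after TLR9 stimulation. In pDC many of these genes are induced by Toll-like receptor signals, through NF-kB and interferon regulatory factors, and several of the transcripts carry ATTTA elements, which shorten the life of an mRNA.

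Probe stretches are shown for the 2 called members and for the neighbouring genes Ccl3 and Ccl4, because they are what each value reads and because ATTTA elements, in capitals, are found in some of them. They are 30 bases of each 60-base probe, 5′ to 3′, as deposited and placed on mouse build mm9. The Il12a stretch is chr3:68502356-68502385 on the plus strand, the Spp1 stretch chr5:104868502-104868531 plus, the Ccl3 stretch chr11:83461388-83461417 minus and the Ccl4 stretch chr11:83478052-83478081 plus.
Il12a: gcctATTTAtATTTATTTAttttctATTTA
Spp1: aggtgatagcttggcttatggactgaggtc
Ccl3: catgaactgacaaatgtacaatagatgctt
Ccl4: tattATTTAtgttttagttataggacgcgt
The Il12a probe held 4 ATTTA elements and the Ccl4 probe 1, and the other 8 members' probes held none. Of all 55681 probes, 7.71% held at least 1 and 0.488% held at least 2. The exon or untranslated region that each probe reads was not analysed here.

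Promoter windows of 250 bases upstream of the start site, from RefSeq on GRCm38.p6, were found for 7 members in 9 windows, and for Ccl4, Ccl5 and Cxcl16 no window was used. Each was searched on both strands for an NF-kB motif, for the TATA box letters TATAAA, for the AP-1 site TGANTCA and for GAGGAA, a core bound by the factor PU.1. Windows of Spp1 (chr5:104434861-104435110, plus strand), Il12a (chr3:68690394-68690643, plus) and Ccl3 (chr11:83649379-83649628, minus) are shown, 5′ to 3′ in the direction of the gene, as those of the 2 members called lower in Sca-1+ pDC and of the one of the neighbours Ccl3 and Ccl4 that has a window, with motif matches in capitals.
Spp1: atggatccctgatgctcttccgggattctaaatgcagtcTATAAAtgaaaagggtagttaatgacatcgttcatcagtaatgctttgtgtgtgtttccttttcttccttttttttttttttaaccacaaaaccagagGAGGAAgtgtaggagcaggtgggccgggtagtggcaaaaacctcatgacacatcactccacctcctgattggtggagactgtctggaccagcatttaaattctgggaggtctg
Il12a: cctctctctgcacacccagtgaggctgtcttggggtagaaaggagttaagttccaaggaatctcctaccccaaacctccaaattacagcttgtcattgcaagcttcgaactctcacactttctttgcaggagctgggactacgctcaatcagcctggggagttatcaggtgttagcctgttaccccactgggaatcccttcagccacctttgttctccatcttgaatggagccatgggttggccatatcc
Ccl3: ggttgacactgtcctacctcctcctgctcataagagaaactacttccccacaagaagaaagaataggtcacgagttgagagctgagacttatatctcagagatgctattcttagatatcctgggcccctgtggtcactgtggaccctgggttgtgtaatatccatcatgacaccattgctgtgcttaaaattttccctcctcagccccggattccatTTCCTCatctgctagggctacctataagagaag
The Spp1 window shown held TATAAA at 211 to 206 bases and GAGGAA at 113 to 108 bases upstream of the start. The other of the 2 Spp1 windows held none of the motifs. In the Ccl3 window GAGGAA lay on the reverse strand, 33 to 28 bases upstream. Neither of the 2 Il12a windows held any of the motifs. The Tnf window held TATAAA 29 to 24 bases and GAGGAA 117 to 112 bases upstream, and the NF-kB motif was found for Ccl9, 35 to 26 bases upstream, and for Tgfb1, 140 to 131 bases upstream. The Ccl9 window also held TGANTCA 53 to 47 bases upstream, and TATAAA at 3 places. No other member window held TGANTCA. In the Il18 window TATAAA lay on the reverse strand, 175 to 170 bases upstream. Over all 32851 windows of that length, 7.25% held the NF-kB motif, 12.4% TATAAA, 6.75% TGANTCA and 23.3% GAGGAA. A match is a match of letters and not a measured binding site.

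Each slide carried 1 Sca-1+ and 1 Sca-1- array of the same replicate number, with Sca-1- at array position 1 and Sca-1+ at position 2 on every slide, so position and group cannot be told apart. Slide 4 was extracted under another protocol of the scanner software than slides 1 to 3, and scanned in another session. The 75th percentile of processed signal was 166 to 396 on Sca-1+ arrays and 152 to 434 on Sca-1- arrays, and the share of non-control spots well above background was 45.9% to 54.9%. Ly6a had levels of 7.17 to 7.82 in Sca-1+ samples and 2.21 to 3.15 in Sca-1- samples, which checks the labels only. Defining pDC genes were bright in both groups. Siglech, a pDC surface lectin, averaged 9.19 in Sca-1+ and 8.93 in Sca-1- samples, and Bst2 averaged 8.67 in Sca-1+ and 8.47 in Sca-1-.

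Il12a and Spp1 were called lower in Sca-1+ pDC by limma's unpaired test, with a Benjamini-Hochberg adjusted p over all 19818 tested genes under 0.05. Over all tested genes, 1.58% were called lower. Spp1 entered the test only through the group where it is high, and such a gene had to differ, so its call is not read against that share, and neither are its other counts below. No member was called higher, against 0.126% of all tested genes. At an unadjusted p under 0.05 there were 3 members, these 2 and Ccl3, against 8.96% of all tested genes. Of the other 8 members, 6 had a positive difference and 2 a negative one. The median difference over the 10 members was 0.13, against 0.03 over all tested genes.

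Il12a (probe on chromosome 3, 68502346 to 68502405, plus strand, mm9) had levels of -3.57, -2.74, -3.30 and -2.52 in Sca-1+ samples, replicates 1 to 4 in order, against -1.14, -1.10, -1.28 and -1.39 in Sca-1- samples. The lowest Sca-1- sample lay above the highest Sca-1+ sample, and the Sca-1- samples lay closer together. The processed signals behind these levels were 14.02, 28.8, 20.3 and 69.1 on the Sca-1+ arrays and 105.2, 71.2, 86.0 and 166 on the Sca-1- arrays. Il12a averaged -3.03 ± 0.49 in Sca-1+ and -1.23 ± 0.13 in Sca-1- samples (SD, n = 4 each), a log2 difference of -1.81 ± 0.24 SE (95% interval -2.35 to -1.26, 3.50-fold lower, limma adjusted p = 0.00804). In these sorted but bulk samples, fewer cells with the transcript and less transcript per cell cannot be told apart. Within slides 1 to 4 the difference was -2.42, -1.64, -2.02 and -1.13, so every slide had the lower value in its Sca-1+ sample. Signals this dim respond to background correction, and with normexp, which adds an offset of 50, the difference was -0.78 (adjusted p = 0.0270).

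Spp1 (probe on chromosome 5, 104868502 to 104868561, plus strand, mm9) passed the background mark on 0 of 4 Sca-1+ arrays and on all 4 Sca-1- arrays. Its levels were -5.64, -3.91, -5.77 and -5.91 in Sca-1+ samples, against -1.28, -1.76, -1.46 and -2.50 in Sca-1- samples. The groups did not overlap, and Sca-1+ replicate 2 stood above the other Sca-1+ samples. The processed signals were 3.33, 12.8, 3.67 and 6.58 on the Sca-1+ arrays and 95.4, 45.0, 75.7 and 76.6 on the Sca-1- arrays. Because the Sca-1+ values lie in the background, a ratio against a floor is given, and by it Spp1 was 4.69-fold lower there. That ratio sets the Sca-1- mean against the mean, over the Sca-1+ arrays, of the higher of the probe's own level and the floor. The floor is the lowest level among an array's probes well above background. On Sca-1+ replicate 2 the floor was -3.93, and Spp1 stood above it without being well above background. The ratio is therefore not a strict lower bound. The measured means were -5.31 ± 0.94 in Sca-1+ and -1.75 ± 0.54 in Sca-1- samples (SD, n = 4 each). The limma adjusted p was 0.00812, for a probe whose Sca-1+ values lie in the background, so the fitted difference is no estimate of the change. With normexp the Spp1 difference was -0.90 and did not pass (adjusted p = 0.297).

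Il12a passed in all 8 fits that left out 1 array. It did not pass when both arrays of slide 1, 2 or 3 were left out, where the difference was -1.60, -1.86 and -1.73 (limma adjusted p = 0.0840, 0.0990 and 0.127). The call of Spp1 was also lost in those fits, which held 3 samples a group (adjusted p = 0.123, 0.0764 and 0.142). Over all tested genes, those fits called 1, 2 and 29. The fit without both arrays of slide 4 also held 3 samples a group, and it called 879 genes. Both members passed in it (limma adjusted p = 0.00519 for Il12a and 0.00922 for Spp1).

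Groups that did not overlap, lower in Sca-1+, were found for Il12a, against 5.04% of all tested genes, and for Spp1. Spp1 entered the test only through its Sca-1- arrays, so it is not read against that share. The corresponding count for higher in Sca-1+ was 0 of 10, against 1.91%. A difference of 1 sign on all 4 slides was found for 6 members. Il12a was lower in Sca-1+ on every slide, against 17.8% of all tested genes, and so was Spp1, which is not read against that share. Il18, Ccl3, Ccl4 and Tnf were higher in Sca-1+ on every slide, 4 of 10 against 18.4%.

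**Figure D1:**
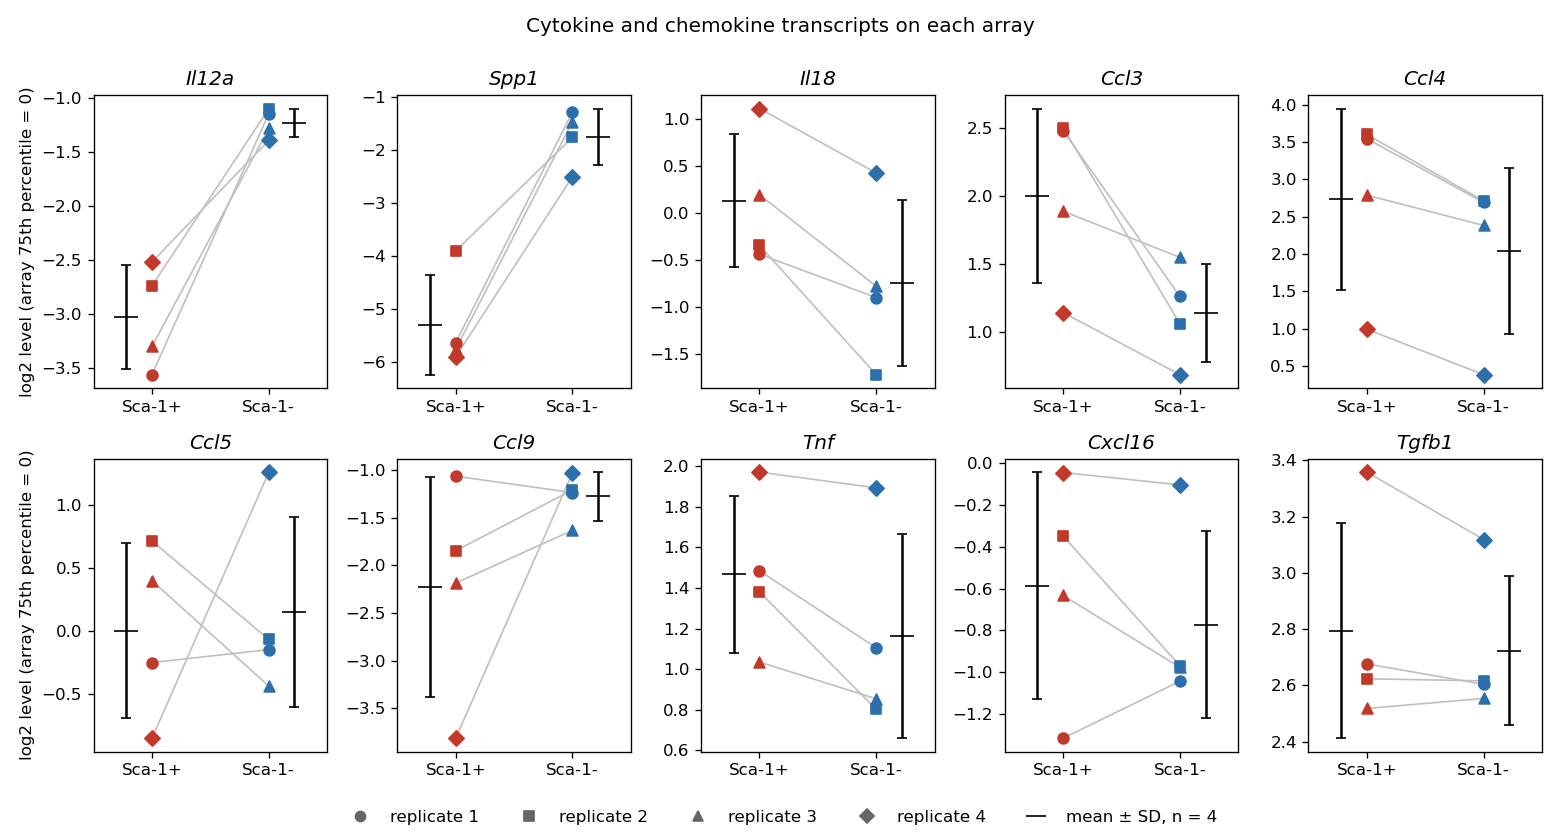
Levels of the 10 transcripts on each array, with Sca-1+ samples on the left and Sca-1- samples on the right of each panel. The vertical axis is the log2 level relative to the array's 75th percentile, with a range of its own in each panel. Grey lines join samples of the same slide, and bars give the mean ± SD of 4 samples. In the Il12a and Spp1 panels the groups do not overlap, and in the Il18, Ccl3, Ccl4 and Tnf panels they overlap but each of the 4 lines has its higher end at Sca-1+.

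None of the 4 CC chemokine genes passed the unpaired fit, and their groups overlapped. Ccl3 and Ccl4 had the higher level in the Sca-1+ sample of every slide, the mean of Ccl9 was lower in Sca-1+, and the sign of Ccl5 varied between slides. Differences between these genes were not tested. Ccl3, which encodes MIP-1 alpha, a ligand of CCR1 (probe on chromosome 11, 83461358 to 83461417, minus strand), had levels of 2.48, 2.50, 1.89 and 1.14 in Sca-1+ samples, against 1.26, 1.06, 1.55 and 0.69 in Sca-1- samples. The Sca-1+ sample was the higher one on each slide, while the lowest Sca-1+ sample, replicate 4, lay inside the Sca-1- range. Ccl3 averaged 2.00 ± 0.64 in Sca-1+ and 1.14 ± 0.36 in Sca-1- samples (SD, n = 4 each), a difference of 0.86 ± 0.33 SE (95% interval 0.11 to 1.61, 1.82-fold). In limma's unpaired fit its unadjusted p was 0.0286 and its adjusted p = 0.426. With slide as a block the adjusted p = 0.0768, and without both samples of replicate 4 the difference was 1.00 and passed the unpaired fit (adjusted p = 0.0477).

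Ccl4, which encodes MIP-1 beta (chromosome 11, 83478052 to 83478111, plus strand), had levels of 3.54, 3.60, 2.79 and 0.99 in Sca-1+ samples, against 2.69, 2.71, 2.38 and 0.38 in Sca-1- samples. Both samples of slide 4 lay far below the other 3 of their group, and the groups overlapped. The means were 2.73 ± 1.22 in Sca-1+ and 2.04 ± 1.12 in Sca-1- samples (SD, n = 4 each), a difference of 0.69 ± 0.71 SE (unpaired limma adjusted p = 1.00). Leaving out Sca-1+ replicate 4 gave 1.27, leaving out Sca-1- replicate 4 gave 0.14, and neither passed (adjusted p = 0.451 and 0.948). Within slides 1 to 4 the Ccl4 difference was 0.85, 0.89, 0.41 and 0.61, or 1.61-fold on average. With slide as a block the difference rested on this narrower spread and passed (95% interval 0.42 to 0.96, limma adjusted p = 0.0268).

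Ccl5, which encodes RANTES (chromosome 11, 83339296 to 83339355, minus strand), had levels of -0.25, 0.71, 0.40 and -0.85 in Sca-1+ samples, against -0.15, -0.07, -0.44 and 1.26 in Sca-1- samples. Its difference was positive on slides 2 and 3 (0.78 and 0.83) and negative on slides 1 and 4 (-0.10 and -2.11). The fitted difference of -0.15 ± 0.45 SE (95% interval -1.17 to 0.87, adjusted p = 1.00) therefore took its sign from replicate 4. It was 0.14 without Sca-1+ replicate 4, 0.22 without Sca-1- replicate 4 and 0.50 without both.

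Ccl9, a CCR1 ligand found in mice (chromosome 11, 83388223 to 83388282, minus strand), had levels of -1.06, -1.85, -2.19 and -3.82 in Sca-1+ samples, against -1.24, -1.21, -1.63 and -1.03 in Sca-1- samples. Sca-1+ replicate 4 was the lowest sample, and the groups overlapped. The difference was -0.95 ± 0.51 SE (95% interval -2.12 to 0.22, limma adjusted p = 0.733), and within slides it was 0.17, -0.64, -0.55 and -2.79. Without both samples of replicate 4 it was -0.34 (adjusted p = 0.604).

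The probes of Ccl5, Ccl9, Ccl3 and Ccl4 lie within 139 kb of chromosome 11, in a stretch where 6 genes had a probe and 5 were tested. The probes of Ccl3 and Ccl4 are 16.6 kb apart, on opposite strands. In that stretch, Ccl6, which is not among the 10 genes, had a difference of -0.16 (adjusted p = 1.00). The genes with a positive difference were thus the neighbours Ccl3 and Ccl4, at 1 end of the stretch. Cxcl16, also on chromosome 11, lies outside it (70267780 to 70267839, minus strand).

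Il18 was higher in Sca-1+ samples on every slide, with groups that overlapped. Its probe lies on chromosome 9, 50389761 to 50389820, plus strand. The levels were -0.44, -0.34, 0.19 and 1.11 in Sca-1+ samples, against -0.90, -1.71, -0.78 and 0.42 in Sca-1- samples. In both groups replicate 4 was the highest sample. Il18 averaged 0.13 ± 0.71 in Sca-1+ and -0.74 ± 0.88 in Sca-1- samples (SD, n = 4 each), a difference of 0.87 ± 0.49 SE (1.83-fold, unpaired limma adjusted p = 0.755). Leaving out Sca-1+ replicate 4 gave 0.55, leaving out Sca-1- replicate 2 gave 0.55, and leaving out Sca-1- replicate 4 gave 1.26. Within slides 1 to 4 it was 0.46, 1.37, 0.97 and 0.68, and with slide as a block it passed (95% interval 0.48 to 1.27, limma adjusted p = 0.0394).

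With slide as a block, therefore, 2 members were called higher, Il18 and Ccl4, against 2.1% of all tested genes. The 2 called lower were again Il12a (adjusted p = 0.0110), against 4.12% of all tested genes, and Spp1 (adjusted p = 0.00806), which is not read against that share. The pairing by slide rests on the replicate numbers and the shared slides.

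**Figure D2:**
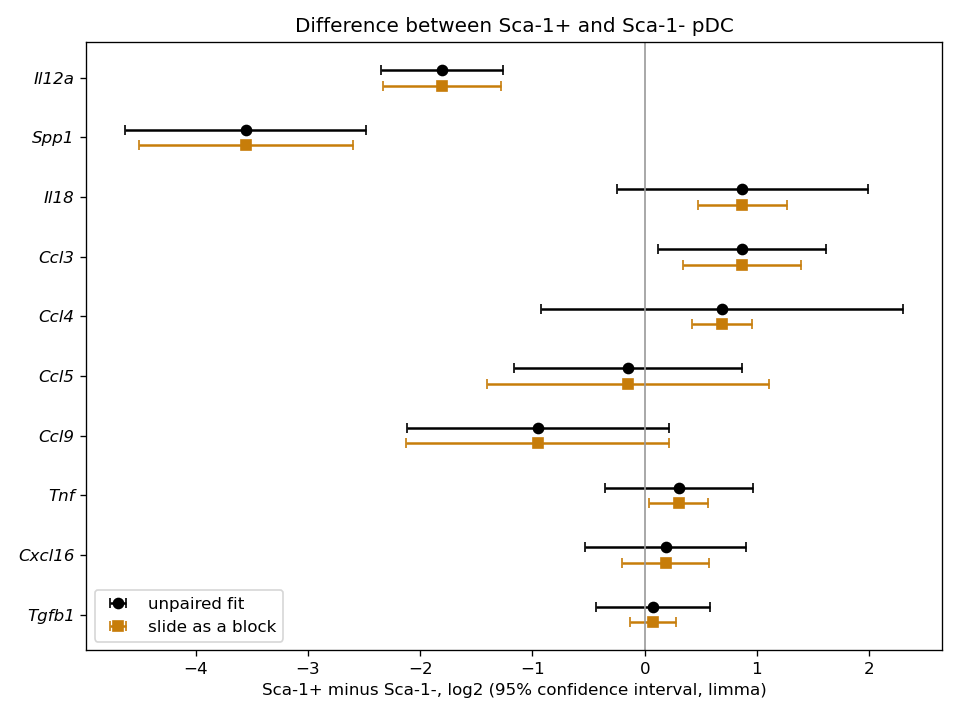
Difference between Sca-1+ and Sca-1- pDC for each transcript, on the log2 scale, with 95% confidence intervals from limma. Black circles show the unpaired fit and orange squares the fit with slide as a block. Both intervals of Il12a and Spp1 lie below 0, and those of Spp1 rest on Sca-1+ values in the background. The intervals of Il18 and Ccl4 span 0 in the unpaired fit and lie above it with slide as a block, and those of Ccl5 and Ccl9 span 0 in both.

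Tnf, Cxcl16 and Tgfb1 did not pass in either fit. Tnf (chromosome 17, 35336795 to 35336854, minus strand) was read from 9 to 10 spots an array, whose SD was 0.032 to 0.084 on the log2 scale, so spot error was small beside the spread between samples. Its levels were 1.48, 1.38, 1.04 and 1.97 in Sca-1+ samples, against 1.11, 0.80, 0.85 and 1.89 in Sca-1- samples. The Sca-1+ sample was higher on each slide, by 0.38, 0.58, 0.18 and 0.08, and the groups overlapped. The difference was 0.30 ± 0.29 SE (95% interval -0.35 to 0.96, limma adjusted p = 1.00), and with slide as a block the adjusted p = 0.161.

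Tgfb1 (chromosome 7, 26489877 to 26489936, plus strand) was read from 10 spots an array, with a spot SD of 0.021 to 0.056, and was the member closest to equal between the groups. It had levels of 2.68, 2.62, 2.52 and 3.36 in Sca-1+ samples, against 2.60, 2.62, 2.55 and 3.12 in Sca-1- samples. The difference was 0.07 ± 0.22 SE, with a 95% interval of -0.44 to 0.58 unpaired and -0.13 to 0.27 with slide as a block. Without Sca-1+ replicate 4 it was -0.12. Cxcl16 had levels of -1.31, -0.35, -0.63 and -0.05 in Sca-1+ samples, against -1.04, -0.97, -0.98 and -0.11 in Sca-1- samples. Its difference of 0.19 ± 0.31 SE had a 95% interval of -0.53 to 0.90 (limma adjusted p = 1.00), and it was negative on slide 1. These intervals leave room for changes of either sign.

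**Figure D3:**
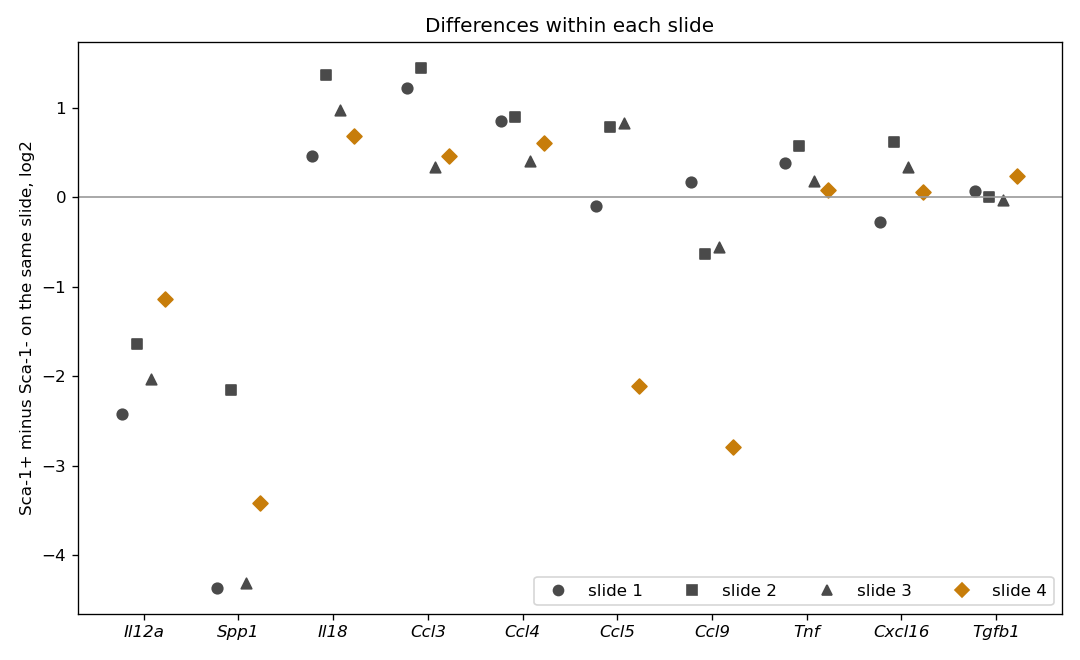
Difference of each transcript between the Sca-1+ and the Sca-1- sample of the same slide, in log2 units, with slide 4 in orange. Il12a and Spp1 (whose Sca-1+ values lie in the background) are below 0 on all 4 slides and Il18, Ccl3, Ccl4 and Tnf above 0 on all 4. For Ccl5 and Ccl9 slide 4 stands apart, at -2.11 and -2.79.

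Several members moved with the slide in both groups. On slide 4, Ccl3 and Ccl4 had their lowest level of each group, while Il18, Tnf, Cxcl16 and Tgfb1 had their highest. Levels are relative to the array's 75th percentile, which was 396 (Sca-1+) and 434 (Sca-1-) on slide 4. On slides 1 to 3 it was 152 to 232. The processed signal of Ccl3 on slides 1 to 4 was 926, 1089, 742 and 875 in Sca-1+ samples. In Sca-1- samples it was 557, 318, 610 and 699. It was thus not lowest on slide 4 in either group, while that of Ccl4 was lowest there in both (787 and 566). Some markers of other cells also differed on slide 4. The mean level of the 12 tested basophil, mast cell and neutrophil markers was 0.71, 0.21, 0.42 and -2.43 on the Sca-1+ arrays of slides 1 to 4, against 1.04, -0.27, 0.44 and -1.94 on the Sca-1- arrays. Mcpt8, a basophil protease gene picked after its values were seen, had levels of 3.59, 1.28, 1.90 and -4.27 in Sca-1+ samples and 3.15, 1.39, 2.43 and -4.09 in Sca-1- samples. Clec9a, a conventional dendritic cell gene picked in the same way, was at 0.09 in Sca-1+ and -0.01 in Sca-1- samples of slide 4, and at 2.18 or more in every other sample. Its list did not follow it in Sca-1- samples. There the mean level of the 12 tested conventional dendritic cell markers was 1.57, 1.71, 1.62 and 1.59 on slides 1 to 4. In Sca-1+ samples that mean was 1.83, 2.15, 1.97 and 1.41. Sirpa, of the same list, was highest on slide 4 in both groups, at 4.54 in Sca-1+ and 4.22 in Sca-1-. The part of these markers in the chemokine levels was not tested.

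The summed levels of the 7 marker lists overlapped between the groups, but the mean log2 level of pDC markers did not. It was 6.17 to 6.25 in Sca-1+ and 5.76 to 6.02 in Sca-1- samples, and it was higher in Sca-1+ on slides 1 to 4 by 0.49, 0.15, 0.33 and 0.20. The mean level of NK and T cell markers was also higher in Sca-1+ on every slide, by 0.36, 0.25, 0.41 and 0.16. The part of either in the members' differences was not tested. Levels were also summed on a linear scale, where the array's 75th percentile is 1, over every listed gene on the array, tested or not. The 17 basophil, mast cell and neutrophil markers came to 170 to 337 in Sca-1+ and 139 to 309 in Sca-1- samples. Of these 17, Cma1 and Ms4a2 were never well above background. Those of conventional dendritic cells (17 summed, 12 tested) came to 151 to 171 in Sca-1+ and 147 to 167 in Sca-1- samples. Those of monocytes and macrophages (18 summed, 11 tested) came to 592 to 932 in Sca-1+ and 471 to 676 in Sca-1-. Those of pDC (19 summed, 19 tested) came to 3168 to 3706 in Sca-1+ and 2720 to 3386 in Sca-1-. Single genes weighed heavily in such sums. Most of the monocyte sum came from Ly6c1, with a mean level of 9.47 in Sca-1+ and 8.90 in Sca-1- samples. Most of the basophil, mast cell and neutrophil sum came from Csf3r, at 7.98 in Sca-1+ and 7.84 in Sca-1-. Among NK and T cell markers, with a mean level of 1.29 to 1.57 in Sca-1+ and 1.08 to 1.32 in Sca-1- samples over the 5 tested, 8 of 15 were never well above background, Cd3d, Ncr1 and Eomes among them. B cell markers (11 summed, 5 tested) came to 6.34 to 7.85 in Sca-1+ and 5.49 to 7.75 in Sca-1- samples, with Pax5 and Ms4a1 never well above background. Erythroid and megakaryocyte markers (7 summed, 2 tested) came to 0.229 to 0.341 in Sca-1+ and 0.260 to 0.443 in Sca-1- samples. No gene of these lists was called in the unpaired limma fit. Its unadjusted p was under 0.05 for 5 of 19 pDC and 2 of 12 conventional dendritic cell markers. The same held for 2 of 11 monocyte and 1 of 5 NK or T cell markers, against 8.96% of all tested genes. With slide as a block, 4 pDC markers (Lag3, Ctsl, Tlr7 and Ccr9), 3 conventional dendritic cell markers (Itgae, Sirpa and Id2) and 2 monocyte and macrophage markers (Ly6c1 and Apoe) were called higher. Called lower were Zbtb46 of the conventional dendritic cell list, F13a1 and Csf1r of the monocyte list and Prtn3 of the neutrophil list. Over all tested genes, the fit with slide as a block called 2.1% higher and 4.12% lower. Csf1r, the CSF1 and IL-34 receptor gene, was at 3.38 in Sca-1+ and 4.57 in Sca-1- samples (difference -1.19 ± 0.32 SE, adjusted p = 0.00637 with slide as a block).

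Of the tested partners of the 2 lower members given here, none passed the unpaired limma fit. IL-12 needs the p40 chain, and Il12b, which encodes it, reached the background mark on 0 of 4 Sca-1+ arrays and 1 of 4 Sca-1- arrays and was not tested. Ebi3, whose product pairs with p35 to form IL-35, averaged 3.52 in Sca-1+ and 3.34 in Sca-1- samples (difference 0.18 ± 0.13 SE). The IL-12 receptor genes had differences of 0.16 ± 0.34 SE (Il12rb1) and 0.34 ± 0.34 SE (Il12rb2), which leave room for changes of either sign. Of the genes for receptors of osteopontin, Cd44 had a difference of -0.13, Itgav -0.15 and Itgb3 -0.29, the last lower in Sca-1+ on every slide. Itga4, an integrin chain that also binds osteopontin, averaged 3.68 in Sca-1+ and 3.17 in Sca-1- samples (difference 0.51 ± 0.20 SE) and passed with slide as a block (adjusted p = 0.0445).

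Of 21 receptor genes for the products of the 10 genes, 15 were tested and 11 had a positive difference. In the unpaired limma fit 0 were called, and 1, Itga4, had an unadjusted p under 0.05, against 8.96% of all tested genes. Their median difference was 0.16, against 0.03 over all tested genes. With slide as a block 1 was called, Itga4, higher in Sca-1+, against 2.1% of all tested genes called higher. The CC chemokine receptor genes Ccr1 (0.48) and Ccr3 (0.49) and the TGF-beta receptor genes Tgfbr1 (0.35) and Tgfbr2 (0.40) were also higher on each slide without passing either fit. The TNF receptor genes had differences of -0.09 (Tnfrsf1a) and 0.27 (Tnfrsf1b), and Cxcr6, the CXCL16 receptor gene, 0.01. Il18r1 and Il18rap, for the IL-18 receptor, were not well above background on any array.

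**Figure D4:**
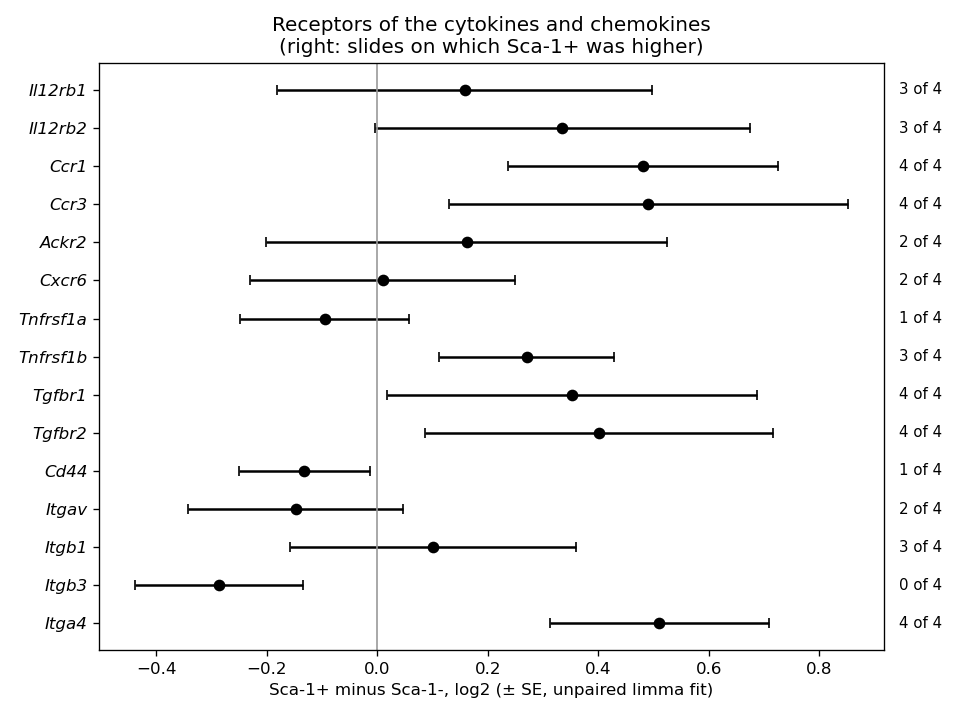
Differences of the 15 receptor genes, Sca-1+ minus Sca-1- on the log2 scale, with the standard error of the unpaired limma fit. The number of slides on which the Sca-1+ sample was higher stands at the right. Ccr1, Ccr3, Tgfbr1, Tgfbr2 and Itga4 were higher in Sca-1+ on 4 of 4 slides, and Itgb3 on 0 of 4.

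Among 26 genes on the array for partners, processing enzymes and binding proteins, 17 were tested and 13 had a positive difference (median 0.15). In either limma fit 0 were called. In the unpaired one 3 had an unadjusted p under 0.05, against 8.96% of all tested genes. Casp1, whose product cleaves the IL-18 precursor, averaged 3.63 in Sca-1+ and 3.28 in Sca-1- samples (difference 0.35 ± 0.19 SE). Il18bp, which encodes the IL-18 binding protein, had a difference of -0.03. The shedding protease genes Adam10 and Adam17, whose products release CXCL16 and TNF from the membrane, had differences of 0.07 ± 0.11 SE and 0.04 ± 0.22 SE. For TGF-beta 1, Furin, a convertase gene, had a difference of 0.31, and Nrros, which encodes a protein that holds latent TGF-beta 1 at the surface of myeloid cells, averaged 5.60 in Sca-1+ and 6.02 in Sca-1- samples (difference -0.42 ± 0.14 SE, adjusted p = 0.343).

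Of 40 regulators of transcription and mRNA decay, 37 were tested and 22 had a positive difference (median 0.10). In the unpaired limma fit 0 were called, and 3 had an unadjusted p under 0.05, against 8.96% of all tested genes. With slide as a block, where 2.1% of all tested genes were called higher, 1 was called. This was Irf7, the interferon regulatory factor that drives interferon alpha genes in pDC, higher in Sca-1+ on slides 1 to 4 by 0.82, 1.13, 1.04 and 0.77 (difference 0.94 ± 0.24 SE, adjusted p = 0.00606 with slide as a block and 0.143 unpaired). Zfp36, whose product tristetraprolin binds AU-rich elements of cytokine mRNAs, averaged 2.37 in Sca-1+ and 1.96 in Sca-1- samples (0.40 ± 0.24 SE). Zfp36l2, of the same family, had a difference of -0.24 ± 0.13 SE. Of the 8 NF-kB subunit and inhibitor genes on the list, 6 had a positive difference, namely Nfkbiz (0.47), Relb (0.35), Nfkbie (0.21), Nfkb2 (0.18), Rela (0.18) and Rel (0.14), and Nfkb1 (-0.21) and Nfkbia (-0.11) had a negative one. Spi1, which encodes PU.1, had a difference of -0.36. None of these 9 genes passed either fit.

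Most other cytokine genes were too dim to test. Of 50 other interleukin, interferon and growth factor genes on the array 13 were tested, of 32 other chemokine genes 6, and of 15 other TNF family ligand genes 4. Their median differences were 0.17, 0.06 and 0.30. Il6, Ifnb1 and Cxcl10, given as examples of the dim genes, were well above background on 0, 0 and 0 Sca-1+ arrays and on 1, 0 and 1 Sca-1- arrays. They do not stand for the lists, since other interferon and CXC chemokine genes were well above background on every array. The unpaired fit called 1 gene of the 3 lists, Il34, against 0.126% of all tested genes called higher. Il34, which encodes a ligand of the CSF1 receptor, was at 0.27 in Sca-1+ and -0.89 in Sca-1- samples (difference 1.16 ± 0.20 SE, limma adjusted p = 0.0303). Of the 8 fits without 1 array, Il34 passed in those without Sca-1- replicate 1 or 4. Slide as a block added Xcl1, a chemokine gene, at -1.11 in Sca-1+ and -2.27 in Sca-1- samples (adjusted p = 0.0413), and Tnfsf10, which encodes TRAIL, at -0.86 in Sca-1+ and -1.86 in Sca-1- samples (adjusted p = 0.0420). All 3 were higher in Sca-1+. The fit with slide as a block called 2.1% of all tested genes higher.

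Tested genes were ranked by how closely they followed each called member, with names of clones, predicted genes and sequence accessions left out. Those whose levels followed Spp1 most closely over the 8 arrays were Aurkb, Cdk1 and Cenpa, a mitotic kinase, the mitotic cyclin-dependent kinase and the centromeric histone (Pearson r of 0.99, 0.98 and 0.98). Cdk1 and Cenpa had differences of -2.19 and -1.97. Aurkb, like Spp1, passed the background mark on 0 of 4 Sca-1+ arrays, so its r rests in part on background values of both probes. By the same ratio against a floor, Aurkb was 2.70-fold lower in Sca-1+. The r of Cdk1 and Cenpa with Spp1 takes in the same background values of Spp1. Those that followed Il12a were Set, the kinesin gene Kif15 and Dnajc9 (r of 0.99 for each), with differences of -0.31, -1.91 and -0.49. Kif15, like Il12a, passed the background mark on 3 of 4 Sca-1+ arrays. Its processed signals there were 14.1, 28.5, 17.2 and 69.2, so its r rests in part on values near background of both probes. The r of Set and Dnajc9 takes in the same dim Il12a values. These correlations rank genes over 8 arrays in 2 groups, share the arrays and their scaling, and are given as a description with no test.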

How the data were processed

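RNA (100 ng a sample) was amplified and labelled with Cy3, per the labels' protocols. Spot intensity was deposited by the authors as extracted and background-corrected by Agilent Feature Extraction 10.7.3.1, per the file headers, with probe positions on mm9. Log2 values that the authors deposited for the same arrays were an alternative.

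Control spots and outlier spots (105 to 162 an array) were left out, with 0 saturated spots. Repeated spots of 1 probe were averaged as log2, and each array's 75th percentile over 55681 probes was subtracted. Names were updated by RefSeq accession (26576 probes) or symbol (3099), and 26006 kept the name in the files. The probe with the highest mean over 8 arrays stood for a gene, tested if well above background on at least 4 arrays.

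The unpaired, two-sided comparison used limma 3.58.1 and R 4.3.3, with Benjamini-Hochberg adjustment over 19818 genes and a threshold of 0.05. In all 339 genes were called. The fit was also run on simulated data with independent noise on each array and no shared slide effect. That run therefore cannot show how the unpaired fit behaves with samples that share a slide. Same-numbered samples shared a slide, and their deviations from the group means correlated at 0.44, 0.43, 0.64 and 0.89, each above 0.1. The highest correlation with another number was 0.54, 0.26, 0.38 and -0.39, so replicate 1 matched another number better. Slide as a block is printed where it changes a call. Alternatives were normexp correction, quantile normalization, other scaling, probe filters and probe rules, the authors' deposited log2 values, and leaving out arrays.

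The members, the lists and the rule for named genes (all members, Ly6a, called genes and those with the smallest p of each list, defining pDC genes, and the 3 genes most like each called member, with names of clones, predicted genes and sequence accessions left out) were chosen with earlier results of these data known. Results for a few listed genes are not reported here. Summaries and plots used Python 3.11.15, numpy 2.4.6, pandas 2.3.3, the R package data.table (1.17.8) and matplotlib 3.10.9.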

Additional observations from a re-analysis of the deposited data

Results flagged for a closer look

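Of the 20 groups of 4 levels (10 genes in 2 groups), 4 held a sample far from the others by Dixon's criterion, which chance meets in about 1 group in 20. For Spp1, Sca-1+ replicate 2 was highest, at -3.91, on an array where the probe was not well above background. For Ccl4, Sca-1- replicate 4 was lowest, at 0.384. For Cxcl16 and Tgfb1, Sca-1- replicate 4 was highest, at -0.105 and 3.12. The 3 samples other than that of Spp1 are the same array of slide 4.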

How the results depend on the processing

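The number of members called was 2. It was 4 with slide as a replicate block, 1 with normexp, 0 when a probe had to be well above background on all 8 arrays (Il12a and Spp1 were then not tested), and 0 to 3 when samples were left out. The number of genes called was 339, and it was 1233 with the replicate block, 182 without the filter on dim probes, and 1 to 879 when samples were left out. The block changed the call of Il18 and Ccl4 and of no other member. Over all settings tried, the difference of Il12a ranged from -2.03 to -0.78 and that of Spp1, which rests on Sca-1+ values in the background, from -4.03 to -0.90. Signs turned for Ccl5 (-0.48 to 0.50 when samples were left out), at 0.14 without Sca-1+ replicate 4, 0.22 without Sca-1- replicate 4 and 0.50 without replicate 4 of both groups, and for Tgfb1 (-0.12 to 0.20), at -0.12 without Sca-1+ replicate 4. Quantile normalization, other scaling and the authors' table changed no member's call. Other probe rules could not change a member's difference, because each member had 1 probe. Dim signals limit Il12a and Spp1, whose Sca-1+ values lie near background, and 4 arrays a group limit the rest.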
